A study of Mus musculus with 3 samples.

Results

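Elastic fibres give skin, lung and large arteries their recoil. Their core is cross-linked elastin, and it forms on microfibrils, which are long bead-like polymers of fibrillin that also hold latent growth factors in the matrix. Fibulins bridge tropoelastin, fibrillin and the lysyl oxidases that cross-link elastin, and small microfibril-associated glycoproteins bind the fibrillin polymers. Fibroblasts and smooth muscle cells are the main makers of these proteins. The 10 genes described here are Eln for elastin, Fbn1 and Fbn2 for the fibrillins, Fbln1, Fbln2, Fbln5, Efemp1 (fibulin-3) and Efemp2 (fibulin-4) for the fibulins, and Mfap2 and Mfap5 for the microfibril-associated glycoproteins. They were chosen by their role, with earlier results of these data known. All 10 were found by symbol among the 21782 genes of the count table.

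RNA-seq was carried out on polyA-selected RNA of asynchronously growing wild-type (WT) mouse embryonic fibroblasts (MEFs) grown from E12.5 embryos. The samples are 3 WT libraries, which the methods describe as 3 clones and which are called clones 1, 2 and 3 here after their replicate numbers. There is no other genotype or treatment, so the questions that can be asked are how high each gene stands and how even it is between clones. Total counts were 25261357, 22594316 and 24791198 in clones 1, 2 and 3, and values are given as counts per 1000000 counts (CPM) after scaling of the library sizes. With 1 library per clone, a difference between clones cannot be told apart from a difference between cultures or libraries.

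All 9 fibroblast genes reached 1 CPM in every clone, with Col1a1 at 27713 ± 3778 CPM (SD, n = 3), although the proteoglycan genes Dcn at 7.73 ± 2.62 CPM and Lum at 2.03 ± 1.19 CPM were low. All 10 macrophage genes were also present and highest in clone 2, where they summed to 1798 CPM against 380 and 314 CPM in clones 1 and 3. The 6 proliferation genes were all lowest in clone 1, with sums of 368, 723 and 609 CPM in clones 1, 2 and 3. Of the other lists, the endothelial genes summed to 10.9 to 22.7 CPM, the epithelial genes to 3.38 to 6.93 CPM, the cartilage genes to 549 to 799 CPM and the smooth muscle genes to 10362 to 10657 CPM. In these bulk samples, fewer cells of a type and less RNA per cell cannot be told apart.

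All 10 genes were transcribed in every clone, but their levels spread over more than 2 orders of magnitude. To compare genes, CPM were divided by transcript length, taken from the isoform with the longest coding sequence (CPM per kb). Fbln2 stood highest at 1594 ± 257 CPM per kb (SD, n = 3), which ranked 21 among 11345 expressed genes with a known length. It was followed by Fbln5 at 392 ± 127, Efemp2 at 323 ± 20.7, Fbn1 at 113 ± 15.4, Mfap2 at 58.5 ± 7.45 and Efemp1 at 47.0 ± 14.4 CPM per kb. The lower part of the order held Fbln1 at 20.4 ± 4.65, Mfap5 at 19.0 ± 7.85, Eln at 16.1 ± 10.6 and Fbn2 at 7.19 ± 1.40 CPM per kb. The median of the expressed genes was 8.47 CPM per kb, and 9 of the 10 members had a mean above it.

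Neighbours in this order were not always separated. Fbln2 was above Fbln5, Efemp2 above Fbn1, Fbn1 above Mfap2 and Efemp1 above Fbln1 in every clone, with no overlap of mean ± SD. Mfap2 was above Efemp1 in every clone, although their mean ± SD overlapped. Fbln5 and Efemp2 changed places between clones, and so did Fbln1 and Mfap5, Mfap5 and Eln, and Eln and Fbn2. Levels per kb depend on the length chosen. When all annotated exons of a gene were merged, Efemp2 fell to 152, Fbln5 to 134, Mfap5 to 7.98 and Eln to 7.64 CPM per kb, and the order changed only in that Efemp2 then had a higher mean than Fbln5.

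**Figure D1:**
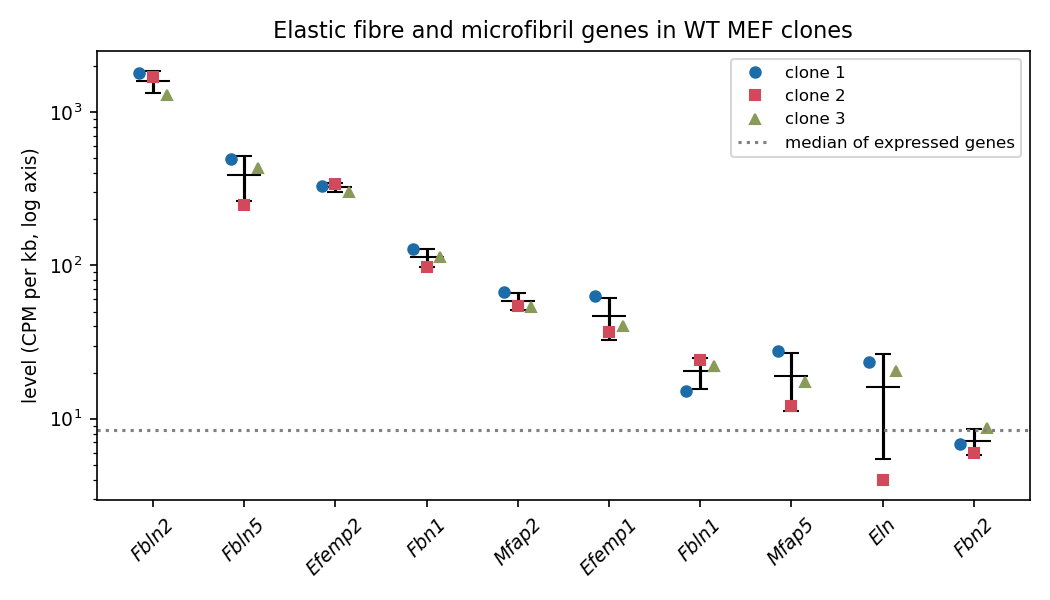
Level of each member in CPM per kb of transcript on a log axis, with 1 symbol per clone; horizontal bars are the mean and vertical bars the SD of the 3 clones, and the dotted line is the median of expressed genes (8.47 CPM per kb). Fbln2 lies above all other members, and the clone 2 value of Eln lies apart from those of clones 1 and 3.

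Together the 10 genes took the largest share of all counts in clone 1, at 1.21% (95% Wilson interval 1.208 to 1.217), followed by 1.08% for clone 2 (1.071 to 1.080) and 0.976% for clone 3 (0.972 to 0.980). Without molecular identifiers on the reads, such intervals describe counting error alone. Fbln2 alone took 0.762% ± 0.111 of all counts (SD, n = 3). The other 9 genes took 0.370%, 0.268% and 0.341% in clones 1, 2 and 3, so that without Fbln2 the share was lowest in clone 2 rather than in clone 3.

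A Pearson chi-square test of the 3 counts of each gene against the scaled library sizes was used to ask whether clones differed by more than counting noise. All 10 members were called at a Benjamini-Hochberg adjusted p-value under 0.05 over all genes tested. This has to be read against the background, since 62.5% of the 12218 genes tested were called as well. The call also depends on count depth, and neither this background nor those given below were matched for level. Every member averaged 28.7 CPM or more, where the median of the expressed genes was 25.7 CPM. With a ratio of at least 1.5 between the highest and the lowest clone as an added condition, 5 members were called, namely Eln, Mfap5, Fbln5, Efemp1 and Fbln1, beside 18.6% of all genes tested. Their number fell to 2 without clone 1 (Eln and Fbln5) and to 2 without clone 2 (Efemp1 and Mfap5), and it was 5 without clone 3. Apart from small changes in scaling, leaving out a clone can only lower the ratio of any gene. The share of all genes passing 1.5-fold between 2 clones is not given here, so this fall is not a result about the members. The median ratio between the highest and the lowest clone was 1.52 for the members and 1.24 for all genes tested.

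The direction was not the same for every member. The highest level was in clone 1 for 7 members (background 37.6% of genes tested), in clone 2 for Efemp2 and Fbln1 (background 35.2%) and in clone 3 for Fbn2 (background 27.2%). Of the 9 fibroblast marker genes, 7 were also highest in clone 1. The other 2, Pdgfra and Thy1, were highest in clone 2 (ratios 2.32 and 1.59). All 9 summed to 60072 CPM in clone 1 against 48974 and 47073 CPM in clones 2 and 3. Most of the clone 1 sum came from Col1a1 at 32052 CPM and Col1a2 at 16794 CPM. The part of these marker genes in the members' pattern was not tested. The lowest level was in clone 2 for 6 members, namely Eln, Fbn1, Fbn2, Fbln5, Efemp1 and Mfap5 (background 34.8%), in clone 3 for Efemp2, Fbln2 and Mfap2 (background 25.8%), and in clone 1 for Fbln1 (background 39.4%). With total counts in place of scaled library sizes, Mfap2 was also lowest in clone 2, which made 7. In pairs of clones, 9 of 10 members were called between clones 1 and 2 (background 53.0%), 10 between clones 1 and 3 (background 45.3%) and 9 between clones 2 and 3 (background 31.7%). The gene not called was Efemp2 between clones 1 and 2 (chi-square test, adjusted p = 0.154) and Mfap2 between clones 2 and 3 (chi-square test, adjusted p = 0.922). On the scale of log2(CPM + 1), the median deviation of the members from their mean level came to 0.20, -0.22 and -0.02 in clones 1, 2 and 3, where the medians of all genes tested were -0.01, 0.00 and 0.01.

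**Figure D2:**
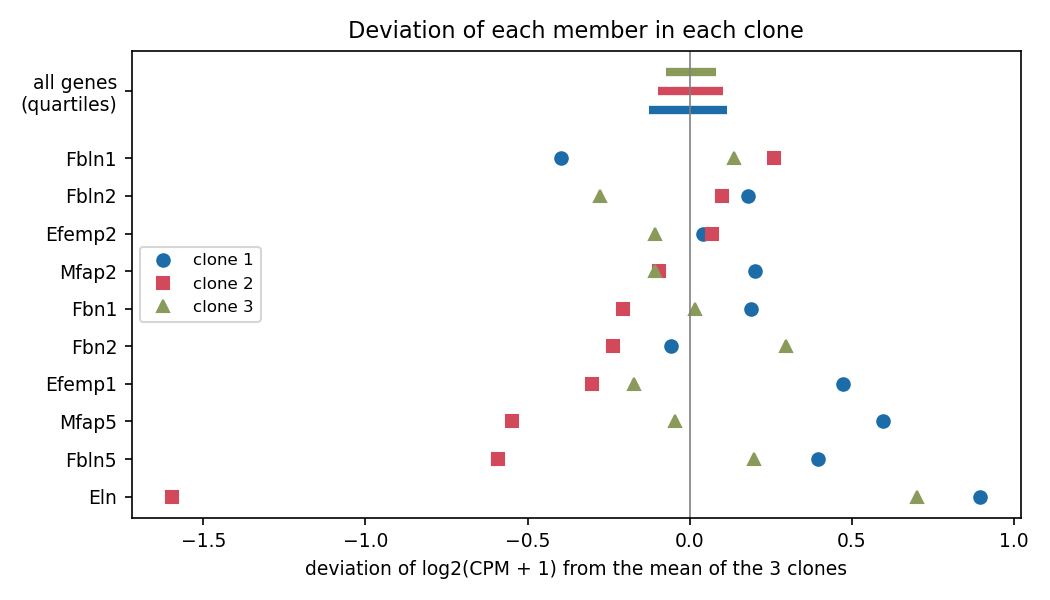
Each member's log2(CPM + 1) relative to its average over the 3 clones, with 1 symbol per clone; the bars at the top span the quartiles of all 12218 genes tested in each clone. Clone 2 lies farthest to the left for 6 members, with Eln at -1.60, and Fbln1 is the member with clone 1 on the left.

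Elastin, the core of the fibre, was the most uneven member. Eln (chromosome 5, 134702593 to 134747323 on the minus strand of GRCm38) had 2259, 346 and 2002 counts in clones 1, 2 and 3, or 90.9, 15.3 and 79.3 CPM. Clone 2 was therefore low, whereas clones 1 and 3 stood close together. The level in clone 1 was 5.93 times and that in clone 3 5.17 times the level in clone 2 (chi-square test over the 3 clones, adjusted p = 3.05e-263), and without clone 2 the remaining ratio was 1.15 between clones 1 and 3 (chi-square test, adjusted p = 4.63e-05). The coefficient of variation between clones was 65.8%, which is above 99.2% of the 8390 tested genes that averaged 10 CPM or more. Genes with fewer than 10 counts in any clone were not tested, so genes almost absent from a clone are not among them. Of these 8390 genes, 15, Eln included, had a ratio between clones as large as that of Eln or larger. The other 14 were highest in clone 2, and Eln was the only gene of the 15 that was lowest there.

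Genes of the marker lists for other cell types differed between the same clones in several directions. The macrophage genes were highest in clone 2 (above). Smooth muscle cells are a main source of elastin, and of their list the early genes Acta2 at 6855 ± 222 CPM and Tagln at 2768 ± 104 CPM were even between clones (SD, n = 3). Myh11, the myosin heavy chain of mature smooth muscle, had 4935, 1801 and 4292 counts in clones 1, 2 and 3, and Des, the desmin gene, had 1778, 701 and 2438 counts, so that both were lowest in clone 2 together with Eln. In all, 3 of the 6 smooth muscle genes were lowest in clone 2. The endothelial genes did not share a direction. Emcn had 307, 4 and 242 counts in clones 1, 2 and 3, whereas Kdr, the only endothelial gene at 1 CPM or more in every clone, had 163, 214 and 314 counts, and Pecam1 (6, 15 and 6 counts) and Cdh5 (4, 6 and 2 counts) were near 0. Of the 4 cartilage genes tested, Col2a1 and Comp were lowest in clone 2. Col2a1 had 18263, 10979 and 18297 counts in clones 1, 2 and 3, and Comp had 109, 24 and 48 counts. Sox9 was highest in clone 2, at 9.26, 12.8 and 10.7 CPM in clones 1, 2 and 3. Acan, at 45.1, 45.5 and 39.8 CPM, was nearly level in clones 1 and 2. Whether cells of these types were present, and what part they had in the level of Eln, was not tested.

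Among 1722 tested genes that averaged 100 CPM or more, those with the pattern most like that of Eln were Col11a1, Dmpk and Adamts10. Likeness was the Euclidean distance of the 3 deviations of log2(CPM + 1). Eln itself averaged 61.8 CPM, and genes below 100 CPM, Des at 66.4 CPM among them, were not compared. Col11a1, the gene of a fibrillar collagen chain, had 15788, 4464 and 12319 counts in clones 1, 2 and 3 at a distance of 0.752. Dmpk, a kinase gene, had 5151, 1510 and 3356 counts (distance 0.949), and Adamts10 had 5432, 1557 and 3357 counts (distance 0.972). Likeness over 3 clones is a description only, and the ratios between clones of these genes (3.10 to 3.21) were smaller than that of Eln.

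Fibrillin-1 and fibrillin-2 form the backbone of microfibrils, and fibrillin-2 is mainly known from embryonic tissue. Fbn1 (chromosome 2, 125300594 to 125507993, minus strand) had 38246, 26383 and 34448 counts in clones 1, 2 and 3, or 1358 ± 185 CPM (SD, n = 3). Clone 2 was lowest, and the highest clone was 1.32 times the lowest. Fbn2 (chromosome 18, 58008623 to 58210487, minus strand) had 1870, 1496 and 2435 counts, or 79.3 ± 15.4 CPM. It was also lowest in clone 2 but highest in clone 3, at 1.45 times the lowest clone. Per kb, Fbn1 took 94.97%, 94.2% and 92.9% of the sum of both fibrillins in clones 1, 2 and 3 (94.0% ± 1.05; SD, n = 3). Fbn1 was the larger in every clone, and its share differed between libraries (chi-square test of the 2 by 3 table of counts, adjusted p over the 4 pairs = 4.22e-31). The Fbn1 value is less certain than the others because exons of Gm9913, which is annotated on the opposite strand, cover 20.1% of its exon length, and the strand setting of the counting is not given in the sources used here. For Fbn2 the overlap was 0.976% (with Gm26507), for Eln 3.3% (with Gm30003) and for Efemp2 4.57% (with Mus81).

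The microfibril-associated glycoproteins MAGP-1 and MAGP-2 are the products of Mfap2 and Mfap5. Mfap2 (chromosome 4, 141010418 to 141015984, plus strand) had 1788, 1315 and 1463 counts in clones 1, 2 and 3, or 72.0, 58.3 and 57.9 CPM. Clone 1 was high and the other clones were level, with a ratio of 1.24 between the highest and the lowest clone (chi-square test, adjusted p = 7.05e-11). Mfap5 (chromosome 6, 122505845 to 122529290, plus strand) had 1031, 411 and 663 counts, or 41.5, 18.2 and 26.2 CPM. It fell in the order clone 1, clone 3, clone 2, with a ratio of 2.28 (chi-square test, adjusted p = 1.49e-49). Its coefficient of variation was 41.2%, above 98.2% of the tested genes averaging at least 10 CPM. Per kb, Mfap2 took 70.9%, 81.8% and 75.6% of the pair in clones 1, 2 and 3 (76.1% ± 5.47; SD, n = 3), and it was the larger of the pair in every clone.

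Fibulin-5, fibulin-4 and fibulin-3 are short fibulins, of which fibulin-4 and fibulin-5 are known to be needed for elastic fibre assembly. Fbln5 (chromosome 12, 101746565 to 101819055, minus strand) had 29129, 13346 and 25833 counts in clones 1, 2 and 3, or 1172, 592 and 1023 CPM. Clone 2 was low and clones 1 and 3 were close, as for Eln, although the ratio of 1.98 between the highest and the lowest clone was smaller. Efemp2 (chromosome 19, 5473954 to 5482517, plus strand) had 14664, 13575 and 13466 counts, or 590, 602 and 533 CPM. It was the most even member, with a ratio of 1.13 and a coefficient of variation of 6.40%. This was below the median of 9.16% over the tested genes averaging at least 10 CPM. All 9 other members lay above that median.

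Efemp1 (chromosome 11, 28853204 to 28926743, plus strand) had 3217, 1700 and 2083 counts in clones 1, 2 and 3, or 129, 75.4 and 82.5 CPM. Here clone 1 was high, and clones 2 and 3 differed by a ratio of only 1.09 (chi-square test, adjusted p = 0.0226). Per kb, Efemp1 took 16.1%, 9.87% and 11.9% of the sum of Efemp1 and Efemp2 (12.6% ± 3.17; SD, n = 3), and Efemp2 was the larger in every clone. The tagwise biological coefficient of variation is edgeR's estimate of relative spread beyond counting noise, drawn towards the values of other genes. It was 0.111 for Efemp2, 0.213 for Efemp1, 0.238 for Fbln5 and 0.531 for Eln, beside a common value of 0.187 for all genes. With 3 libraries it is not a gene's own spread, and for Efemp2 it lay above the plain coefficient of variation of 6.40%.

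**Figure D3:**
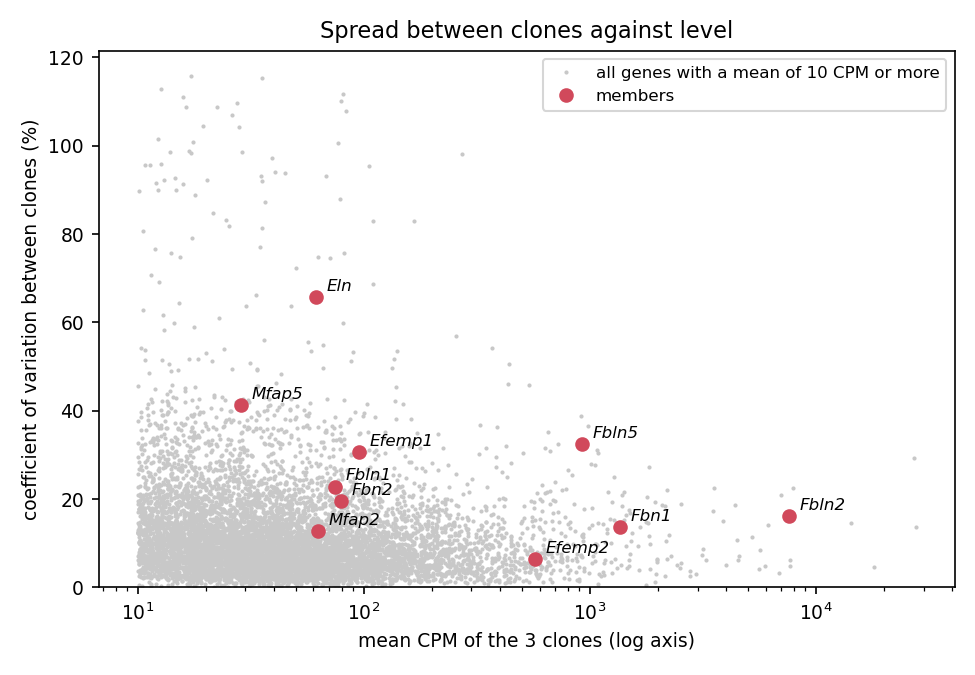
Coefficient of variation of CPM between the 3 clones against the mean CPM (log axis) for the 8390 tested genes averaging 10 CPM or more (grey) and the 10 members (red). Eln at 65.8% and Mfap5 at 41.2% are the highest of the members, and Efemp2 at 6.40% the lowest.

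The long fibulins, fibulin-1 and fibulin-2, bind fibronectin, basement membrane proteins and microfibrils. Fbln2 (chromosome 6, 91212455 to 91272540, plus strand) had 212766, 182403 and 157515 counts in clones 1, 2 and 3, or 8564, 8089 and 6236 CPM. It was lowest in clone 3, with a ratio of 1.37 between the highest and the lowest clone. Fbln1 (chromosome 15, 85205949 to 85286535, plus strand) had 1376, 1981 and 2034 counts, or 55.4, 87.9 and 80.5 CPM. It was the only member with its lowest level in clone 1, the clone that was highest for 7 members, and its ratio was 1.59 (chi-square test, adjusted p = 1.59e-40). Per kb, Fbln1 took 0.839%, 1.40% and 1.66% of the sum of both genes (1.30% ± 0.420; SD, n = 3), so Fbln2 was 118, 70.4 and 59.2 times as high as Fbln1 in clones 1, 2 and 3. In the sum of all 10 members per kb, Fbln2 took 61.4% ± 5.47, Fbln5 15.1% ± 4.59, Efemp2 12.5% ± 1.16 and Fbn1 4.39% ± 0.521, while Eln took 0.801%, 0.158% and 0.890% in clones 1, 2 and 3.

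**Figure D4:**
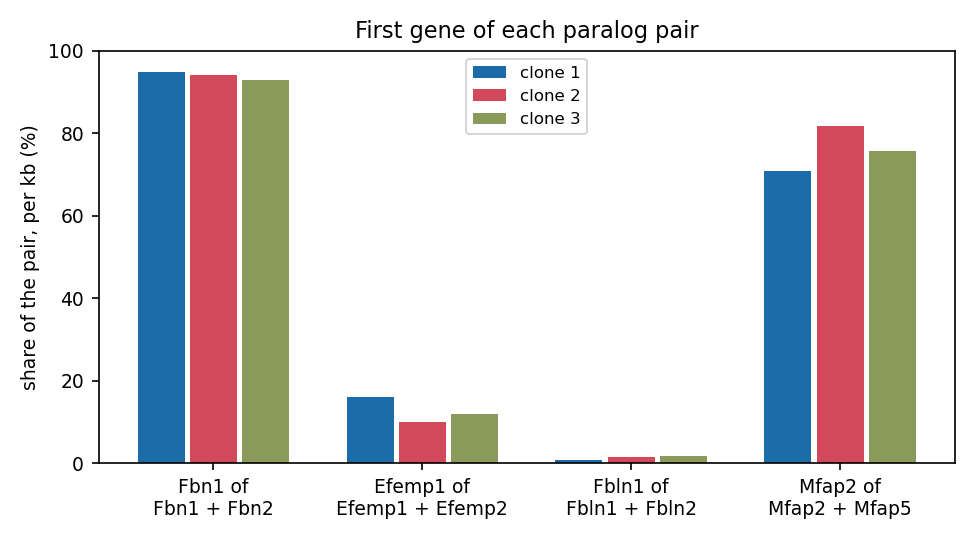
Share of the first gene in the per-kb sum of each paralog pair, in percent, with 1 bar per clone. Fbn1 takes 92.9% to 94.97% of the fibrillins, Efemp1 9.87% to 16.1%, Fbln1 0.839% to 1.66% and Mfap2 70.9% to 81.8% of their pairs.

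Among the fibulins, Fbln2 was higher in clone 1 than in clone 2 by a ratio of only 1.06. Fbln1 and the pair of Efemp1 and Fbln5 had larger differences between clones 1 and 2, in opposite orders. The 100 bases before their start sites are shown for this contrast, from RefSeq promoters on GRCm38.p6, with every match to the GC box GGGCGG on either strand in capitals (CCGCCC on the strand shown marks the reverse strand). The windows are chr11:28853105-28853204 (plus strand) for Efemp1, chr12:101818485-101818584 (minus strand) for Fbln5 and chr15:85205849-85205948 (plus strand) for Fbln1.
Efemp1: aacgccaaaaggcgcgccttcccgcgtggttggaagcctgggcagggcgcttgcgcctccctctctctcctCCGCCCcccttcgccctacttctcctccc
Fbln5: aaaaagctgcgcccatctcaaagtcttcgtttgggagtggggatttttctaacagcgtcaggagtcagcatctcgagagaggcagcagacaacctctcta
Fbln1: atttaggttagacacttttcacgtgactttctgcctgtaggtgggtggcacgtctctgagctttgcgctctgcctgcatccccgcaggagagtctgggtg
In the 250 bases before the start site, searched on both strands, GGGCGG was found for 5 of the 7 members that the promoter table lists (Fbn1, Efemp1, Efemp2, Fbln2 and Mfap2), and it occurs in 32.7% of all 32851 promoters of the table. Where the table lists several starts (Efemp2, Fbln1, Fbln5 and Mfap2), the start nearest to the 5′ end of the transcript used for length was taken. The starts of Fbn1 and Fbln2 lie 1555 and 309 bases downstream of that end, and all of the last 100 bases before them are annotated exon, as are 47 of these bases for Efemp2 and 44 for Mfap2. Fbln1 and Fbln5 had no match. Efemp2, the most even member, had 5 matches, some of which overlap each other. The TATA box TATAAA (12.4% of all promoters) and CCAAT (33.8%) were found for none of the 7. The table does not list Fbn2, Eln and Mfap5. These matches are descriptions of the letters and were not tested against the levels.

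Of the other genes of the pathway, 34 of the 35 listed were in the count table, 26 were at 1 CPM or more in every clone and 28 had enough counts to be tested. The test called 26 of these 28 as differing between clones (background 62.5%), 16 of them by at least 1.5-fold (background 18.6%). Of the 28, 19 were highest in clone 1 (background 37.6%), 7 in clone 2 (background 35.2%) and 2 in clone 3 (background 27.2%), while 6 were lowest in clone 1 (background 39.4%), 12 in clone 2 (background 34.8%) and 10 in clone 3 (background 25.8%). Hmcn2 was not analysed here.

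Several of the latent TGF-beta binding proteins attach the growth factor to fibrillin, and all 4 genes of this list were expressed. Of these, 3 were called (background 62.5%) and 2 of them by at least 1.5-fold (background 18.6%). Ltbp2 had 35727, 17525 and 25467 counts in clones 1, 2 and 3 (ratio 1.85), and Ltbp3 had 16837, 8627 and 11524 counts (ratio 1.77), both lowest in clone 2. Ltbp1 was highest in clone 2 (ratio 1.19). Ltbp4 stood at 98.0 ± 1.17 CPM (SD, n = 3) and was not called (chi-square test, adjusted p = 0.752). Per kb, Ltbp2 at 159 ± 49.5 and Ltbp1 at 138 ± 12.8 CPM per kb lay near Fbn1.

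Emilins are glycoproteins at the surface of elastic fibres, and of this list 3 of 6 genes were expressed. All 3 were called (background 62.5%), 2 of them by at least 1.5-fold (background 18.6%). Emilin1 had 13215, 5635 and 9607 counts in clones 1, 2 and 3 (ratio 2.13) and was lowest in clone 2, like Eln. Emilin2 went the other way, with 423, 1545 and 518 counts (ratio 4.02), in the clone with the highest macrophage markers; their part in this was not tested. Mfap4 had a ratio of 1.40. Mmrn1 had no count in any clone, which allows up to 0.119 to 0.133 CPM (3 counts), and Emilin3 and Mmrn2 had at most 4 counts.

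Of the other fibulins, both genes tested were called by at least 1.5-fold (background 18.6%). Hmcn1 (hemicentin-1) had 179, 47 and 147 counts in clones 1, 2 and 3, and Fbln7 had 37, 20 and 12 counts, so both were far below the 10 members. The list of ADAMTS and ADAMTS-like genes, several of whose products bind fibrillin, had 7 of 8 tested genes called (background 62.5%). Of these, 4 were called by at least 1.5-fold (background 18.6%). Adamts10, a gene in which mutations cause a disease of microfibrils, was the highest of the list at 34.7 ± 18.6 CPM per kb (SD, n = 3), with a ratio of 3.17 between clone 1 and clone 2. The other 3 called by at least 1.5-fold differed in direction, with Adamtsl5 highest in clone 1 (ratio 1.56), Adamtsl1 highest in clone 2 and lowest in clone 3 (ratio 1.79), and Thsd4 highest in clone 3 and lowest in clone 2 (ratio 2.14).

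Lysyl oxidases cross-link elastin and collagen. All 5 were expressed and called (background 62.5%), and none by as much as 1.5-fold (background 18.6%). Each had a smaller ratio between clones than Eln. Loxl2 (1.45) and Loxl3 (1.43) still lay above the median ratio of 1.24 for all genes tested, while Lox, Loxl1 and Loxl4 did not. Loxl2 stood at 478 ± 90.4, Lox at 457 ± 48.4, Loxl1 at 241 ± 11.9 and Loxl3 at 147 ± 29.4 CPM per kb (SD, n = 3). Loxl1, known for its part in elastic fibre renewal, had a ratio of 1.10 between clones, against 5.93 for its substrate gene Eln.

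All 6 elastin-degrading proteases that were expressed were called by at least 1.5-fold (background 18.6%), in differing directions. Mmp2 had 34274, 15324 and 22535 counts and Ctsl 35999, 17826 and 26204 counts in clones 1, 2 and 3, and both were lowest in clone 2. The macrophage elastase gene Mmp12 had 74, 443 and 93 counts (ratio 6.60), and Ctss, a cathepsin gene of macrophages, had 426, 1880 and 437 counts (ratio 4.86), both highest in clone 2, where Eln was lowest. Elane and Mmp7 had no count in any clone. Whether these proteases or macrophages bear on the level of Eln RNA was not tested.

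**Figure D5:**
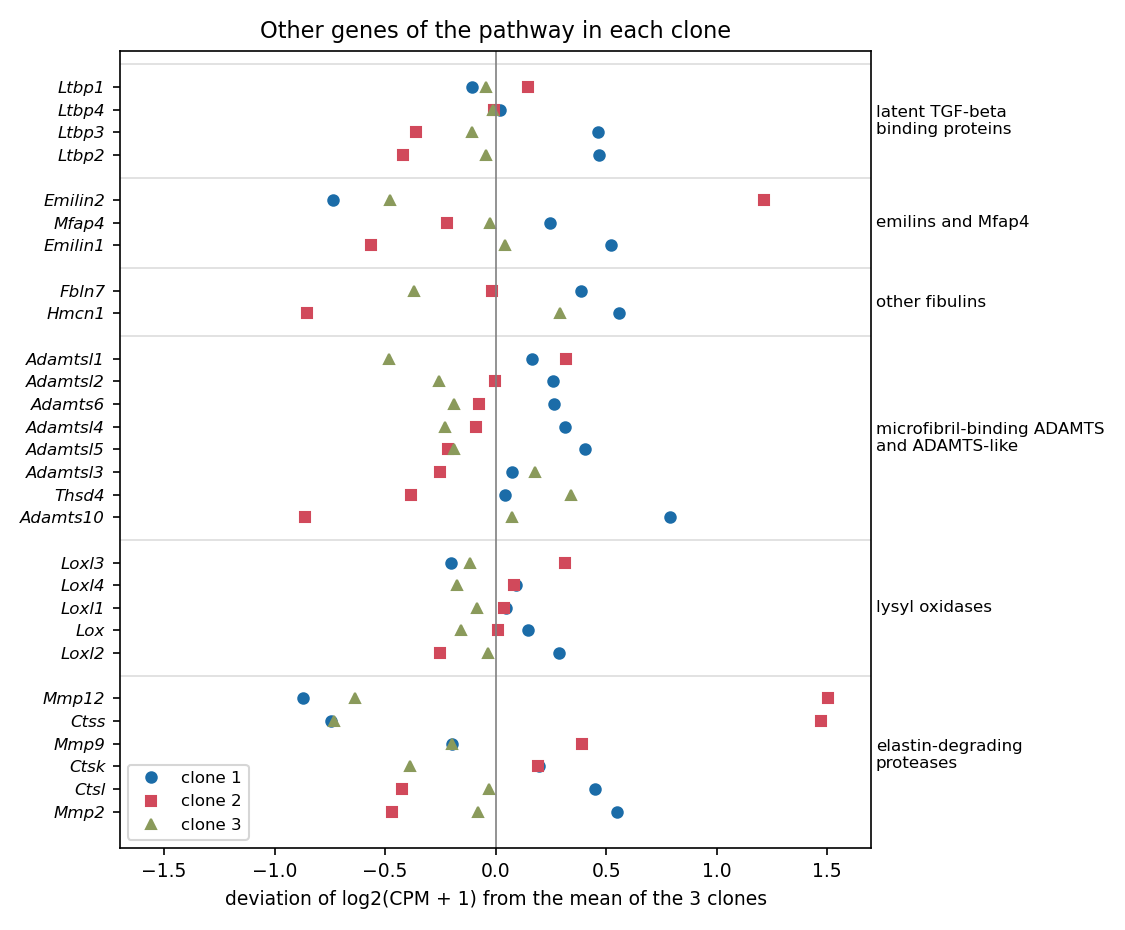
Relative log2(CPM + 1), as the difference from the average over the 3 clones, for the 28 tested genes of the other pathway lists, with 1 symbol per clone and 1 block per list. Adamts10, Hmcn1 and Emilin1 are low in clone 2, Mmp12, Ctss and Emilin2 are high there, and the 5 lysyl oxidases stay within 0.32 of the average.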

How the data were processed

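Per the methods, single-end reads of 86 nt were aligned by the authors with TopHat 2.0.0 (Bowtie 0.12.7, Samtools 0.1.16), with 2 mismatches and 5 multi-hits permitted, and counted them with HTSeq. The values deposited are raw counts by gene symbol, 1 column per library. The methods name mm10 as the genome, whereas the submitters' processing notes name mm9, so the build behind the counts is uncertain. The strand setting, gene annotation and HTSeq version are not given in the sources used here.

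Library sizes were scaled by TMM (edgeR 4.0.16 in R 4.3.3; factors 0.984, 0.998 and 1.02). The chi-square test was run on genes that reached 10 counts in each of the 3 clones (2 degrees of freedom, Benjamini-Hochberg over all of them, threshold 0.05). It was tried on simulated counts that held counting noise and planted changes only, so its behaviour under spread between cultures was not tested. It compares libraries, not conditions. Every pair of libraries differed beyond counting noise in many genes, so each was kept as a replicate. The p-values measure departure from counting noise among these libraries and hold no estimate of the spread between clones. Nothing in the labels says that the clones came from separate embryos. Log values use a pseudocount of 1 CPM. Places and lengths came from GENCODE M21 on GRCm38. By symbol, 21117 table genes were matched to it and by synonym another 594. No 86-nt stretch of Efemp1, Efemp2, Fbln1, Fbln2, Fbln5, Mfap2 or Mfap5 matched another gene's transcripts within 2 mismatches, against 19.8% for Fbn1, 0.429% for Fbn2 and 1.94% for Eln, all with the antisense genes named in the text.

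The members, the lists of pathway and marker genes and the rule for the genes named were chosen with earlier results of these data known. The rule took all members and up to 4 genes of each pathway list with the highest level per kb or called with at least 1.5-fold. It also took the 3 genes nearest to the most uneven member among tested genes averaging 100 CPM or more. Other genes (markers, Ltbp4 and the genes at or near 0) were named for context. Alternatives were DESeq2 1.42.0 size factors, total counts, other filters, pseudocounts and lengths, and leaving out each clone. Python 3.11.15, numpy 2.4.6, pandas 2.3.3 and scipy 1.17.1 were used.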

Additional observations from a re-analysis of the deposited data

How the results depend on the processing

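Of 136 recalculations under an alternative setting, 123 were classed as unchanged. Counts of members were classed so within 1.5-fold, and levels and shares within the SD between clones. These margins are wide for uneven genes. The level of Eln, at 16.1 CPM per kb, was classed as unchanged at 7.64 with merged exons and at 22.1 without clone 2. The count of 10 members called as differing between clones was 9 without clone 1 or without clone 3 and 10 under every other setting tried. The 5 members called with at least 1.5-fold became 2 to 5 when each clone was left out (2 without clone 1 or clone 2). No share of all genes was set beside these numbers. The span of the members' median deviation between clones was 0.42 on the log2 scale and became 0.17 to 0.35 when each clone was left out. With all annotated exons merged as the length, the Efemp1 share of its pair rose from 12.6% to 23.4% and the Mfap2 share from 76.1% to 87.0%, and without division by length the Mfap2 share was 69.5%. None of the 4 pairs changed its larger gene under any of these settings. Of 60 recalculated levels, 4 moved by more than the SD between clones, all with merged exons, namely those of Efemp2, Fbln2, Fbln5 and Mfap5. Of 20 recalculated coefficients of variation, 18 stayed close to their value, and those of Efemp2 (5.09%) and Mfap2 (11.2%) were lower with total counts. No paired analysis was possible because the samples form 1 group. With 3 clones, the SD of each gene is itself known only roughly. Counting noise limits the least abundant members most, the lowest count being 346 for Eln in clone 2.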
